A study of Mus musculus with 36 samples.

Results

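The genes described here are 9 genes of central myelin and of the oligodendrocyte lineage: Mbp, Mog, Mobp, Mag, Cnp, Gsn, Olig1, Olig2 and Pdgfra. They were taken from the deposited table by gene symbol, and all 9 were found among its 18845 genes. Oligodendrocytes are the glial cells that wrap axons of the brain and spinal cord in myelin. They arise from dividing precursors that carry the growth factor receptor Pdgfra and the transcription factors Olig1 and Olig2, and they switch on the proteins of the myelin sheath as they mature. In the mouse spinal cord this maturation falls largely in the first weeks after birth.

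The study sequenced RNA purified through the HA tag that the Ribo-tag allele puts on a ribosomal protein wherever Cre is active, and ChAT-Cre directs Cre to cholinergic cells such as motor neurons. The spinal cord samples, which the labels call soma, came from ChAT-Cre;Ribo-tag (Cre-positive) mice. Synapse-enriched diaphragm muscle came from ChAT-Cre;Ribo-tag (Cre-positive) mice and from Ribo-tag mice without Cre (Cre-negative), so the Ribo-tag allele is shared by every group. The ages were embryonic day E15.5, postnatal days P0.5 and P10, and an adult age that the labels give as 2-month. With 3 libraries a group this makes 12 groups and 36 libraries. The labels do not say that the 3 libraries are separate animals, so p-values measure the spread between these samples, which may be technical. No Cre-negative spinal cord sample was analysed, so the background of the purification in spinal cord was not measured. Whether a glial transcript came with the tagged ribosomes or from other cells of the cord cannot be told apart here, and neither can fewer cells of a type and less RNA per cell.

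Values are in CPM, reads of a gene per 1000000 assigned reads, which are not divided by gene length, so levels are compared within a gene and not between genes. The steps of the low values gave 63.7 to 71.8 M reads per spinal cord library, 86.0 to 107 M reads per Cre-positive diaphragm library and 68.2 to 93.7 M reads per Cre-negative diaphragm library. A floor of 3 reads is 0.0418 to 0.0471 CPM in spinal cord, and it covers counting error only. Chat, the acetylcholine-synthesizing enzyme of motor neurons, averaged 15.9, 11.5, 64.9 and 64.6 CPM in spinal cord over the 4 ages and reached at most 0.157 CPM in the diaphragm. In all 4 spinal cord groups replicate 3 is well described as a weighted sum of the other 2 libraries. It lay between them for 48.1% to 60.3% of genes, against 18.3% to 29.4% for the other libraries. In the 8 diaphragm groups the library best described in this way lay between the others for 62.45% to 87% of genes. For the other diaphragm libraries this share was 2.45% to 34.7%. Every group thus has 1 intermediate library, which may not be an independent sample. Calls are therefore also given without these intermediate libraries.

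All 9 genes are protein-coding. Positions are those of GRCm38.p6, the mm10 assembly in RefSeq. Mog spans chr17:37010740-37023398, Mobp chr9:120149742-120181488, Mag chr7:30899175-30914922, Cnp chr11:100574909-100591875, Gsn chr2:35256359-35307902 and Pdgfra chr5:75151322-75198206. Olig2 at chr16:91225550-91228677 and Olig1 at chr16:91269769-91271939 are neighbours. RefSeq promoters, 250 bases before to 50 after a transcription start, were at hand for 7 of the 9 genes. The promoters of Mobp, Mog, Mag and Cnp are shown because these myelin genes rose together by P0.5 and again by P10, and that of Olig2 because its course differed. Each is read 5′ to 3′ on the strand of its gene. Capitals mark CTGGCAC and CTGGTAC, letters known from binding by the myelin regulator Myrf, and ACAAAG and ACAATG, letters known from Sox factors such as Sox10, on either strand. These are chr9:120149492-120149791 (plus strand) for Mobp, chr17:37023349-37023648 (minus) for Mog, chr7:30914814-30915113 (minus) for the first listed Mag start, chr11:100574689-100574988 (plus) for Cnp and chr16:91225300-91225599 (plus) for Olig2.
Mobp: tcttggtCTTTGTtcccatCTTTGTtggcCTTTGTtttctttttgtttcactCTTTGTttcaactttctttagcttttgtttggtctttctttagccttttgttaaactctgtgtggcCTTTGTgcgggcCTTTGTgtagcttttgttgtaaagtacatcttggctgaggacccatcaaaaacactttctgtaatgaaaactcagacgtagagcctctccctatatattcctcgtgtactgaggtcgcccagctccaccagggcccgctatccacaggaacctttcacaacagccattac
Mog: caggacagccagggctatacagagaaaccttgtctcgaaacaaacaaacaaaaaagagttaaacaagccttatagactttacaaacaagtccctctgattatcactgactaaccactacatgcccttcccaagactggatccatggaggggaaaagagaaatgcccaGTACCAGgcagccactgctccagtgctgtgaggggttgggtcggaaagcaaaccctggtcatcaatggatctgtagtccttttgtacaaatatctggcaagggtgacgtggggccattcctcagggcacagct
Mag: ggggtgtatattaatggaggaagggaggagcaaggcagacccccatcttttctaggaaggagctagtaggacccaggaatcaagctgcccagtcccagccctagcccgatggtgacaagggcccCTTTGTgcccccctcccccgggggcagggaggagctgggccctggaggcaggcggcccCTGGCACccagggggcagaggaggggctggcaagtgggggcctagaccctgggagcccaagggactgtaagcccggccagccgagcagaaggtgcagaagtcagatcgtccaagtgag
Cnp: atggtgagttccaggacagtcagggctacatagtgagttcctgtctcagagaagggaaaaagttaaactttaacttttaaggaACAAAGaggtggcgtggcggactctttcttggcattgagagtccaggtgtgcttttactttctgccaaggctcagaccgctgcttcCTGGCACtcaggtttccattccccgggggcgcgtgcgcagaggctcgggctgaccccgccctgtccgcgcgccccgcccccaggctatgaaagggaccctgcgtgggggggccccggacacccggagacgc
Olig2: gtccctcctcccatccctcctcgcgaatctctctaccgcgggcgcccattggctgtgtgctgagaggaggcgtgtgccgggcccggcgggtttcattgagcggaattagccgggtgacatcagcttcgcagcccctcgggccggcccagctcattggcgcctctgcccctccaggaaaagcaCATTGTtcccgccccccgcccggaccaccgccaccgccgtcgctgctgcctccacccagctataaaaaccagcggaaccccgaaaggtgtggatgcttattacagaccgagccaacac
The Mobp promoter holds ACAAAG 6 times, each on the reverse strand as CTTTGT, at 243, 231, 221, 198, 132 and 120 bases before the start. Of 32851 mouse promoters, 18.7% hold ACAAAG at least once, and 1, that of Mobp, holds it 6 times. Mag and Cnp each hold ACAAAG once and CTGGCAC once, the second of which is present in 5.01% of all promoters. Mog holds GTACCAG once, the reverse of CTGGTAC, which 2.24% of promoters share. By gene, 3 of the 7 members with a promoter have either of these Myrf-type motifs, against 8.1% of 27025 genes. Among genes with a promoter in the lists described below, 2 of 19 further central myelin genes and 1 of 10 genes of committed oligodendrocytes have one. So do 0 of 13 precursor and lineage genes, 2 of 9 Schwann cell genes and 1 of 9 motor neuron genes. None of the fibroblast, pan-neuronal, astrocyte, microglia or skeletal muscle genes has one. The Olig2 promoter has ACAATG once, as CATTGT, which 12.6% of promoters share, and those of Gsn and Pdgfra hold none of the 4 motifs. A match is a run of letters and no evidence of binding.

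**Figure D1:**
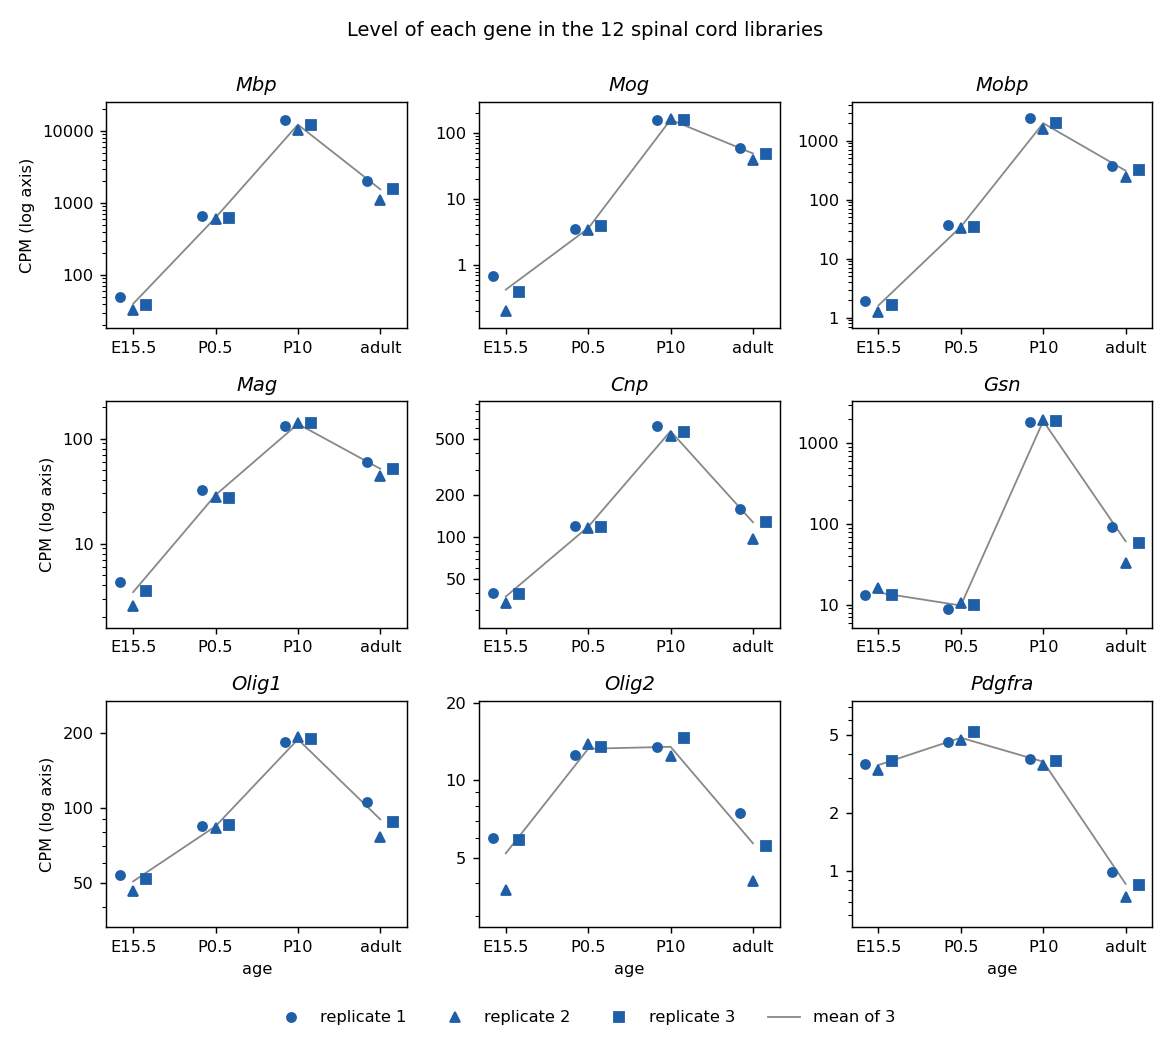
CPM of each gene (log axis, a separate scale for each gene) in the 12 spinal cord libraries by age, with replicates 1, 2 and 3 as circles, triangles and squares and a line through the age means. Of the 9 genes, 8 have their highest mean at P10, Olig2 by a margin smaller than the spread between libraries, and Pdgfra has its highest mean at P0.5.

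All 9 genes were detected in every library at E15.5, and those of the precursor and lineage stage were nearest to their own highest mean there. Olig1, a helix-loop-helix transcription factor of oligodendrocyte maturation, had 53.8, 46.2 and 51.8 CPM at E15.5 and 84.5, 82.6 and 85.6 CPM at P0.5. It had 184, 192 and 189 CPM at P10 and 105, 76.6 and 87.7 CPM in adults. P10 was above every other age in each library, while the adult libraries overlapped those of P0.5. Olig1 was 1.67-fold higher at P0.5 than at E15.5 (log2 difference 0.73 ± 0.0892, SE, adjusted p = 2.9e-06, limma with Benjamini-Hochberg adjustment over all genes tested), and a further 2.24-fold higher at P10 than at P0.5 (adjusted p = 9e-09). In adults it fell by 1.07 on the log2 scale relative to P10 (adjusted p = 5.5e-08).

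Olig2, its neighbour and partner, is needed for oligodendrocyte precursors and, earlier, for motor neuron progenitors of the spinal cord. It had 6.01, 3.77 and 5.91 CPM at E15.5 and 12.5, 13.8 and 13.4 CPM at P0.5. At P10 it had 13.4, 12.5 and 14.6 CPM and in adults 7.49, 4.09 and 5.56 CPM. The P10 and P0.5 libraries overlapped, and so did those of adults and E15.5. The rise at P0.5 over E15.5 was 2.54-fold (log2 difference 1.22 ± 0.176, SE, adjusted p = 5e-05), and P10 did not pass the test against P0.5 (log2 difference 0.02 ± 0.176, SE, adjusted p = 0.91). In adults Olig2 was lower than at P10 (log2 difference -1.14, adjusted p = 0.0001).

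Pdgfra, the receptor for platelet-derived growth factor that marks oligodendrocyte precursors in the central nervous system and fibroblasts elsewhere, was the only member with its highest mean before P10. It had 3.55, 3.31 and 3.67 CPM at E15.5, 4.62, 4.71 and 5.22 CPM at P0.5, 3.76, 3.51 and 3.68 CPM at P10 and 0.992, 0.741 and 0.854 CPM in adults. P0.5 stood above all other ages and adults below them, while the P10 and E15.5 libraries overlapped. Pdgfra was 1.38-fold higher at P0.5 than at E15.5 (log2 difference 0.37 ± 0.081, SE, adjusted p = 0.00069). It fell by 0.33 at P10 relative to P0.5 (adjusted p = 0.0016), a call lost without the intermediate libraries (adjusted p = 0.077). The adult level was 4.24-fold lower than at P10 (adjusted p = 1.8e-09). In the adult libraries these values rest on 67, 52 and 59 reads.

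Cnp and Mag, which act at the non-compacted parts of the sheath, came next on the scale of each gene's own highest age mean. Cnp, a cyclic nucleotide phosphodiesterase found early in maturing oligodendrocytes, had 39.7, 33.9 and 39.1 CPM at E15.5, 121, 116 and 119 CPM at P0.5, 622, 529 and 569 CPM at P10 and 159, 96.8 and 128 CPM in adults. The ages did not overlap except for adults and P0.5. Cnp was 3.16-fold higher at P0.5 than at E15.5 (log2 difference 1.64 ± 0.14, SE, adjusted p = 6.2e-07), 4.84-fold higher at P10 than at P0.5 (adjusted p = 1.7e-08) and 4.48-fold lower in adults than at P10 (adjusted p = 6.1e-08).

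Mag, an adhesion molecule of the innermost myelin membrane that faces the axon, had 4.30, 2.53 and 3.55 CPM at E15.5 and 32.1, 27.6 and 27.3 CPM at P0.5. It had 132, 139 and 142 CPM at P10 and 59.9, 43.8 and 50.9 CPM in adults. No 2 ages overlapped. In contrast to the genes below, the larger of its rises was between E15.5 and P0.5: 8.39-fold at P0.5 over E15.5 (log2 difference 2.77 ± 0.136, SE, adjusted p = 1.6e-09), against 4.75-fold at P10 over P0.5 (adjusted p = 4.7e-09). Adults were 2.67-fold below P10 (adjusted p = 9.9e-07).

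The genes of compact myelin and of its outer surface followed on that scale only. Their rises at P0.5 over E15.5, 15.8-fold for Mbp, 21.5-fold for Mobp and 8.43-fold for Mog, were not smaller than those of Mag (8.39-fold) and Cnp (3.16-fold). Mbp, on chromosome 18, holds the cytoplasmic faces of the membrane together and is also made by Schwann cells in peripheral nerve. It had 48.9, 32.3 and 37.9 CPM at E15.5 and 651, 603 and 625 CPM at P0.5. At P10 it had 14489.9, 10216.5 and 12260 CPM, which is 1.23% of all assigned reads on average, and in adults 2008, 1095 and 1552 CPM. No 2 ages overlapped. Mbp was 15.8-fold higher at P0.5 than at E15.5 (log2 difference 3.97 ± 0.23, SE, adjusted p = 3.1e-07), 19.7-fold higher at P10 than at P0.5 (adjusted p = 9.5e-08) and 7.94-fold lower in adults than at P10 (adjusted p = 2.6e-06).

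Mobp, a small basic protein of compact central myelin, took a similar course from a lower start. It had 1.95, 1.27 and 1.63 CPM at E15.5, 36.5, 33.5 and 34.3 CPM at P0.5, 2402, 1572 and 1964 CPM at P10 and 378, 239 and 314 CPM in adults, again with no overlap between ages. The rise was 21.5-fold at P0.5 over E15.5 (log2 difference 3.78 ± 0.181, SE, adjusted p = 1.7e-08) and 56.9-fold at P10 over P0.5 (adjusted p = 2.3e-10). Adults were 6.38-fold below P10 (adjusted p = 3.2e-07). Between P10 and E15.5 the means of Mobp differed 1226-fold, more than those of any other member, and those of Mbp 310.2-fold.

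Mog, an immunoglobulin-like protein on the outer face of the sheath and a marker of mature oligodendrocytes, was close to absent at E15.5. It had 0.685, 0.204 and 0.391 CPM at E15.5, from 44, 13 and 25 reads, and 3.49, 3.40 and 3.89 CPM at P0.5. At P10 it had 158, 162 and 155 CPM and in adults 59.5, 38.8 and 48.5 CPM, and no ages overlapped. Mog was 8.43-fold higher at P0.5 than at E15.5 (log2 difference 1.70 ± 0.136, SE, adjusted p = 9e-08) and 44.0-fold higher at P10 than at P0.5 (adjusted p = 6.9e-13). The adult level was 3.24-fold lower than at P10 (adjusted p = 1.2e-07) and 115-fold above that at E15.5.

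Gsn, an actin-severing protein that many cell types make and that takes part in the actin disassembly of myelin wrapping, had a course of its own. It had 13.2, 16.1 and 13.1 CPM at E15.5 and 8.86, 10.5 and 10.01 CPM at P0.5. All 3 libraries of P0.5 were below those of E15.5, but the difference did not pass the test (log2 difference -0.49 ± 0.302, SE, adjusted p = 0.18). At P10 it had 1839, 1943 and 1894 CPM, 193-fold above P0.5 (log2 difference 7.46 ± 0.302, SE, adjusted p = 1.5e-08). In adults 93.2, 32.8 and 57.6 CPM were left, a mean 30.9-fold below P10 (log2 difference -5.05, adjusted p = 5.7e-07). Both of these changes were the largest of the 9 genes on the log2 scale, and the adult libraries of Gsn spread the widest, 2.84-fold between replicates 1 and 2.

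**Figure D2:**
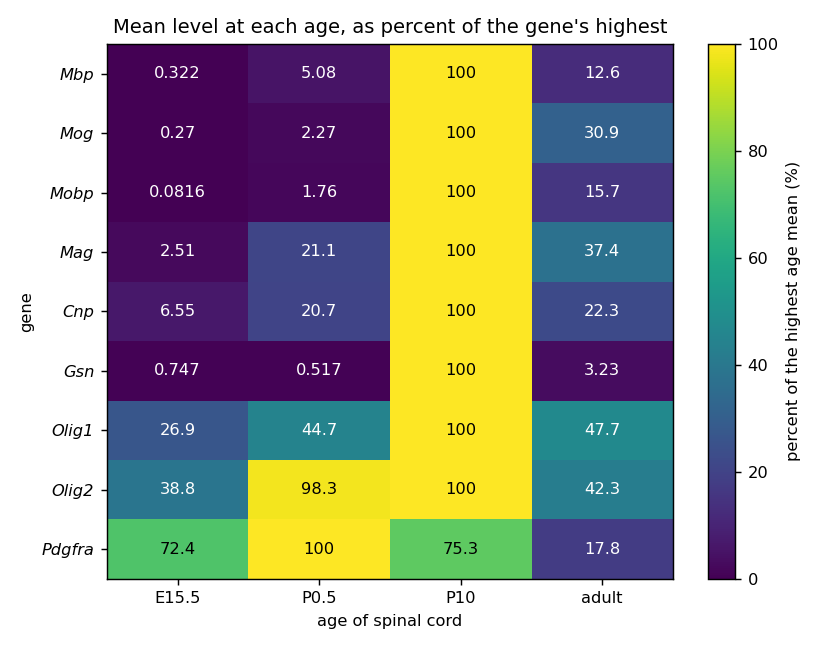
Mean CPM of each gene at each spinal cord age as a percentage of its highest age mean (colour and printed value, mean of 3 libraries). Olig1, Olig2 and Pdgfra are already above 25% at E15.5, Mag and Cnp are near 21% at P0.5, and Mbp, Mog, Mobp and Gsn are at 5.08% or less until P10.

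Set against its own highest age mean, each gene had an onset age, here the first age at 10% of that mean or more. Pdgfra (72.4% at E15.5), Olig2 (38.8%) and Olig1 (26.9%) reached it at E15.5, Mag (21.1%) and Cnp (20.7%) at P0.5, and Mbp, Mog, Mobp and Gsn at P10. At P0.5 the last 4 stood at 5.08%, 2.27%, 1.76% and 0.517%. The age of reaching 50% was E15.5 for Pdgfra, P0.5 for Olig2 (98.3%) and P10 for the other 7 genes. With 5% in place of 10%, Cnp moved to E15.5 and Mbp to P0.5, and the other 7 genes kept their onset age. Adults kept 47.7% of the highest mean for Olig1, 42.3% for Olig2 and 37.4% for Mag, but 12.6% for Mbp and 3.23% for Gsn. The onset ages were the same with size factors (RLE) and without the intermediate libraries.

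**Figure D3:**
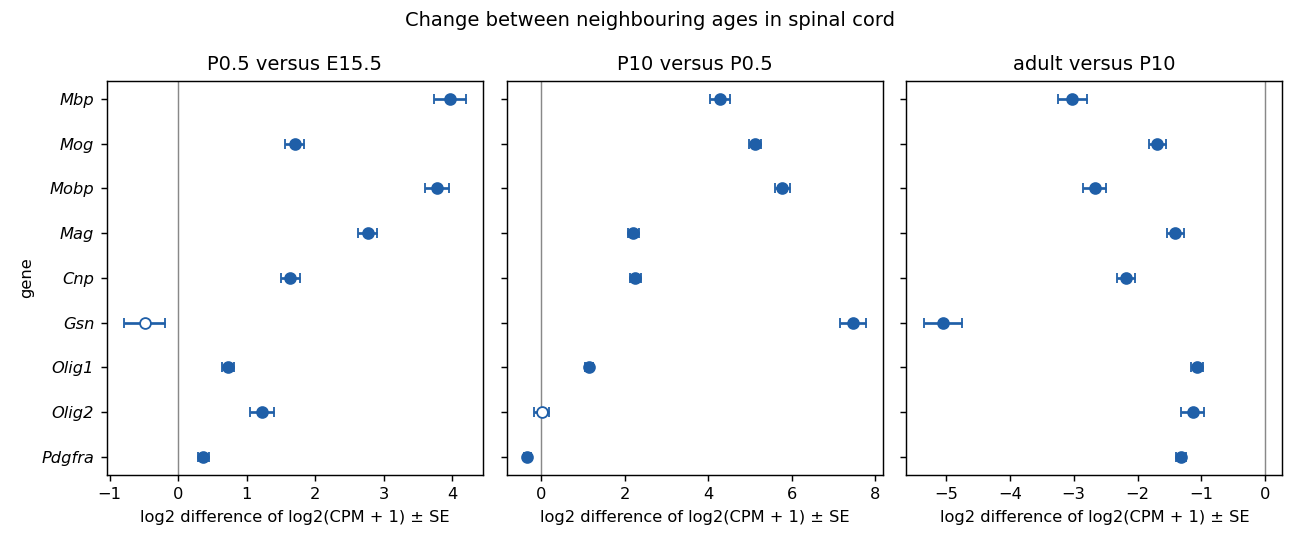
Log2 differences between neighbouring spinal cord ages (mean of log2(CPM + 1), later minus earlier age, bars ± SE from limma, 3 libraries an age, a separate scale for each panel). Filled points have an adjusted p under 0.05, and open points do not: Gsn at P0.5 versus E15.5 and Olig2 at P10 versus P0.5.

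Counted over the steps, 8 of the 9 genes rose at P0.5 relative to E15.5 and none fell, where 27.9% of the 13373 genes tested were higher and 44.4% lower. At P10 relative to P0.5, 7 rose and Pdgfra fell, with 35.2% of all genes higher and 43.5% lower. In adults relative to P10 all 9 fell, with 23.6% of all genes higher and 44.3% lower. Since 72.3%, 78.7% and 67.9% of all genes changed at these steps, a change alone does not set a gene apart, and the sizes say more. The members' median log2 differences were 1.64, 2.26 and -1.69, beside -0.13, -0.08 and -0.16 over all genes. RLE size factors moved the medians over all genes to within 0.02 of 0 and gave 36.2% higher and 35.5% lower at the first step, 39.7% each way at the second and 36.3% higher and 32.6% lower at the third. Under RLE every one of the 9 genes kept its call at each step. Without the intermediate libraries 8 rose at P0.5 (20.9% of all genes higher and 35.7% lower), 7 rose and none fell at P10 (29.9% and 36.8%), and 9 fell in adults (15.8% and 33%).

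The fall in adults was not equal among the libraries. All 9 genes had their highest adult level in replicate 1, the next in replicate 3 and the lowest in replicate 2, an order that 46% of 11671 genes at 1 CPM or more share. The ratio of replicate 1 to replicate 2 was 1.34 for Pdgfra to 2.84 for Gsn with a median of 1.58, beside a median of 1.07 over all genes, 1.3 over 10 astrocyte markers and 0.995 over 10 motor neuron markers. It was 3.15 over 10 skeletal muscle genes, 1.44 over 12 genes of committed oligodendrocytes and 1.35 over 15 fibroblast genes. The remaining lists gave 1.23 (29 further central myelin genes), 1.23 (18 precursor and lineage genes), 1.17 (15 Schwann cell genes), 1.09 (10 microglia genes) and 1 (10 pan-neuronal genes). Between P10 and adults, 44.3% of all 13373 genes tested fell and 23.6% rose. Among markers of other cells, 9 of 11 tested peripheral myelin and Schwann cell genes and 13 of 14 fibroblast genes fell. So did 7 of 8 skeletal muscle genes, 6 of 10 astrocyte genes and 1 of 10 motor neuron genes. Counts for the pan-neuronal and microglia genes are not given here. The part of these markers in the fall of the 9 genes was not tested. Chat itself was 64.6 CPM in adults and 64.9 CPM at P10 (log2 difference 0.00, adjusted p = 1).

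At E15.5 the order of replicate 1 over 3 over 2 held for 7 of the 9 genes, beside 33.1% of 12808 genes. The median ratio of replicate 1 to replicate 2 was 1.51 over the 9 genes and 1.02 over all genes. Other lists gave 1.44 (astrocyte), 1.16 (precursor and lineage), 1.15 (microglia), 1.09 (committed oligodendrocyte), 1.04 (29 further central myelin genes) and 1.02 (motor neuron). The lowest were 0.952 (pan-neuronal), 0.904 (Schwann cell), 0.712 (fibroblast) and 0.44 (skeletal muscle). At P0.5 the median ratio was 1.03 over the 9 genes and 1.04 over all genes. Other lists ran from 0.73 (Schwann cell) and 0.738 (microglia) to 1.2 (motor neuron) and 4.25 (skeletal muscle) at that age. The part of the makeup of the E15.5 and P0.5 libraries in the rise at P0.5 was not tested. At P10 the libraries differed in another way. Genes of Schwann cells, fibroblasts and skeletal muscle were mostly higher in replicate 2 than in replicate 1. The median ratio of replicate 1 to replicate 2 was 0.553 over 15 Schwann cell genes, 0.308 over 15 fibroblast genes and 0.147 over 10 skeletal muscle genes. It was 1.13 over the motor neuron, 1.07 over the pan-neuronal, 1.06 over the microglia and 0.973 over the astrocyte genes. Mbp, Mobp and Cnp were instead highest in replicate 1 (ratios of 1.42, 1.53 and 1.18), and Mog, Mag, Gsn and Olig1 were nearly equal (0.946 to 0.972). At P10 relative to P0.5, 35.2% of all genes tested rose and 43.5% fell. Of 11 tested Schwann cell genes 6 rose and 3 fell, and of 14 fibroblast genes 1 rose and 3 fell. The part of these lists in the rise of the 9 genes was not tested.

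The other genes of the lineage, from lists that hold none of the 9 members, moved in part alike. Beside their counts, 27.9% of all genes tested were higher and 44.4% lower at P0.5. The shares were 35.2% and 43.5% at P10, and 23.6% and 44.3% in adults. Of 29 further central myelin genes, 22 rose and 2 fell at P0.5 relative to E15.5 (median log2 difference 0.60), all 29 rose at P10 relative to P0.5 (1.93), and 4 rose and 19 fell in adults relative to P10 (-0.67). Claudin gene Cldn11 (log2 difference 2.55) and Pllp, the plasmolipin gene (3.10), were among those with the largest rise at P0.5. Opalin (5.53), Mal (5.26) and Ermn (3.90), genes of mature oligodendrocytes, were among those at P10. All of these changes had adjusted p-values of 1.4e-08 or less.

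Unlike the 9 members, 4 genes of that list were higher in adults than at P10. Klk6, a secreted protease of oligodendrocytes, averaged 47.6 ± 0.436 CPM in adults and 4.81 ± 0.0885 CPM at P10 (SD, n = 3 each, log2 difference 3.06, limma adjusted p = 1e-13). The others were Anln (0.94), Ndrg1 (0.75) and Hapln2 (0.72), a link protein at the nodes of myelinated axons. Gal3st1 (-2.70) and Ugt8a (-1.98), enzymes of myelin galactolipid synthesis, fell in adults.

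Committed or premyelinating cells were represented by 12 genes, of which 10 rose and 1 fell at P0.5 relative to E15.5, 9 rose and 2 fell at P10 relative to P0.5, and all 12 fell in adults relative to P10 (median log2 difference -1.89). Gpr17, a receptor of cells about to myelinate, averaged 3.34, 7.30, 31.3 and 2.60 CPM over the 4 ages. Sirt2, a deacetylase abundant in myelin, averaged 71.1, 130, 1082 and 75.2 CPM, a course like that of Gsn in its single high age. Of 17 tested precursor and lineage genes, 9 rose and 5 fell at P0.5, 8 rose and 6 fell at P10, and 1 rose and 15 fell in adults. At P10 these genes moved both ways, as all genes did (35.2% higher and 43.5% lower). Sox10, the lineage factor upstream of many myelin genes, averaged 5.81, 15.8, 19.8 and 6.84 CPM. The exception in adults was S100b, a calcium-binding protein shared with astrocytes, at 2129 CPM in adults and 1193 CPM at P10. The summed Schwann cell list ran to 171 to 192, 173 to 216, 298 to 721 and 244 to 254 CPM at the 4 ages.

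Among 8076 genes with a spinal cord age mean of 10 CPM or more, likeness was measured as the mean absolute difference, in points of percent of the highest age mean, over the 12 spinal cord libraries. Mbp and Mobp were each other's closest gene (2.29 points), followed for both by Cldn14 (4.54 points from Mbp and 5.21 from Mobp). Among the genes closest to Mog was Mal (3.44), and Mag was closest to Bcas1 (3.20), Bfsp2 (3.30) and Pllp (4.27). The closest to Cnp were Gal3st1 (3.61), Enpp6 (5.10) and Ugt8a (5.36).

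Gsn had the closest neighbours of all members, Myh9 (0.941 points), Myo6 (1.19) and Myh10 (2.93), which encode myosin motors. Myh9 averaged 0.917, 0.387, 35.5 and 1.32 CPM over the 4 ages and Myo6 2.05, 1.88, 137 and 5.88 CPM. The genes closest to Olig1 were Tspan15 (3.28), Chpt1 (3.998) and Hivep2 (5.14). Olig2 and Pdgfra had a looser closest match than the other members. Nearest to Olig2 were Kcnip3 (6.43), Slc4a4 (6.64) and Arpp21 (7.17), and nearest to Pdgfra were Dnm2 (5.95), Gsto1 (6.12) and Cyb5a (6.34). The third closest to Mbp and Mobp were Lima1 (4.96) and Myh14 (6.53). With RLE size factors 23 of the 27 named neighbours were again among the 3 closest, but not Pllp for Mag, Enpp6 for Cnp, Hivep2 for Olig1 or Arpp21 for Olig2.

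The diaphragm, a muscle with peripheral but no central myelin, served as contrast. Over its 24 libraries Olig2 was at 0 reads in 23, Mog in 20, Olig1 in 14, Mobp in 13 and Mag in 9, while Mbp, Gsn and Pdgfra were detected in all 24. The highest diaphragm value of Mog was 0.103 CPM and of Olig2 0.0374 CPM, from 11 and 4 reads. Mog, Mobp, Olig1 and Olig2 did not pass the filter on low values within diaphragm and were tested against it only because spinal cord carried them through. The filter thus favoured a higher level in spinal cord in advance, at some of the ages though not necessarily at each. Of the 5 members that passed within diaphragm, Mbp, Mag and Cnp were higher in spinal cord at all 4 ages, Gsn was lower at E15.5 and P0.5 and higher at P10, and Pdgfra passed the test at none. Relative to Cre-positive diaphragm of the same age, 3 of these 5 members were thus higher and 1 lower in spinal cord at E15.5, 3 higher and 1 lower at P0.5, 4 higher at P10 and 3 higher in adults. The matching shares of all 14831 genes tested were 52.1% higher and 21.5% lower at E15.5, then 56.9% higher and 18.4% lower at P0.5, 53.1% higher and 19.9% lower at P10, and 55.3% higher and 19.5% lower in adults. Of the genes called, 70.8%, 75.6%, 72.7% and 73.9% were thus higher in spinal cord at the 4 ages, and 54.8%, 58.5%, 58.7% and 58.6% with RLE size factors. Without the intermediate libraries the 5 members gave the same counts, with 42.8% of all genes higher and 14.8% lower at E15.5. The shares were then 47.9% higher and 13.8% lower at P0.5, 43.9% higher and 14% lower at P10, and 47.8% higher and 14.7% lower in adults. The median over all genes was 0.58, 0.80, 0.63 and 0.72 on the log2 scale, against 0.11, 0.22, 0.20 and 0.23 with RLE.

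**Figure D4:**
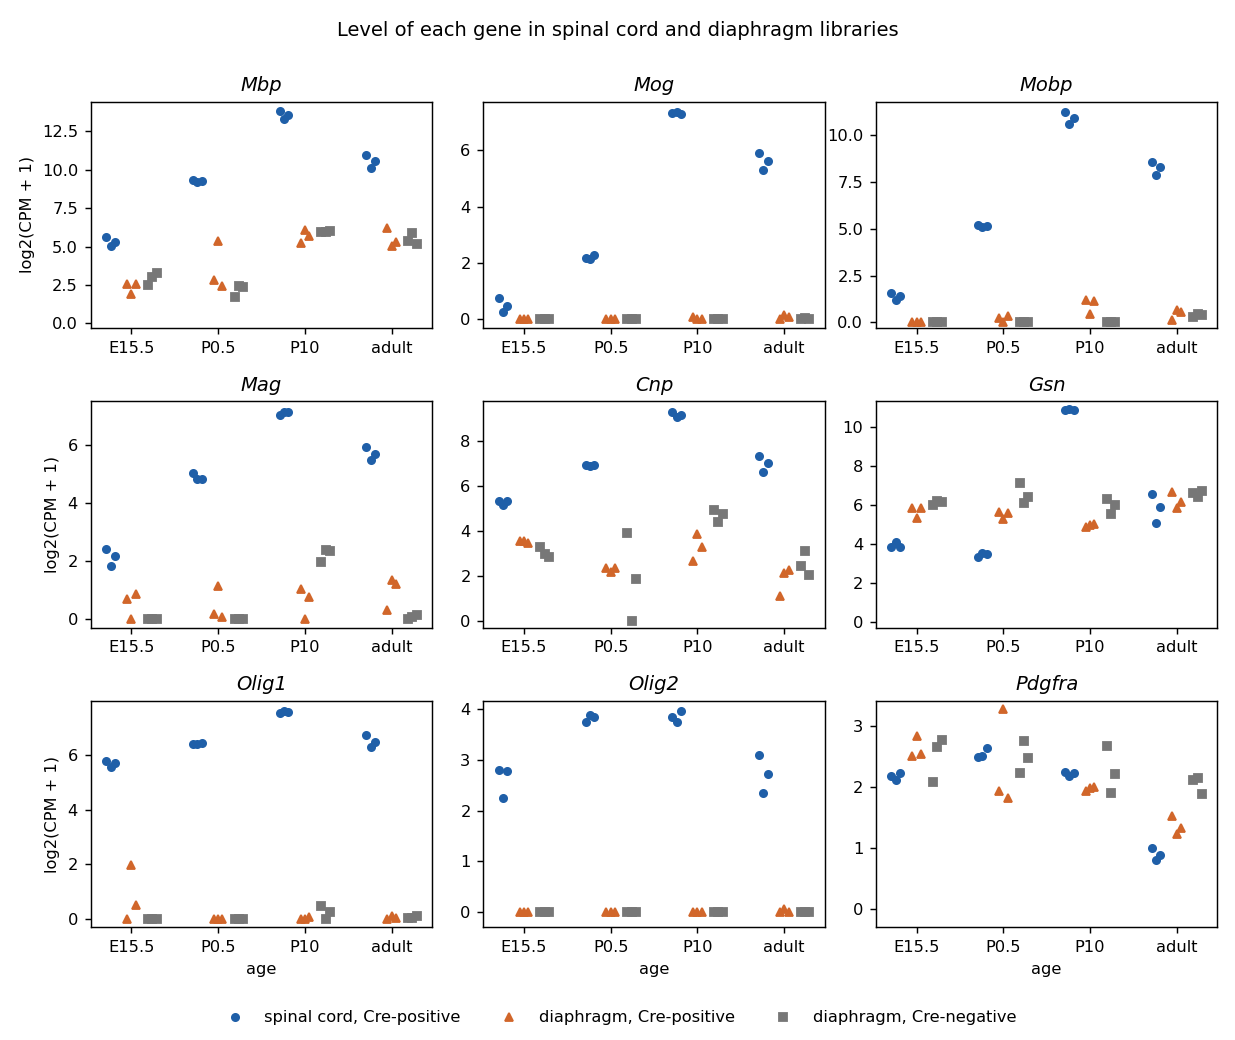
log2(CPM + 1) of each gene by age in Cre-positive spinal cord (circles), Cre-positive diaphragm (triangles) and Cre-negative diaphragm (squares), 3 libraries a group, with a separate scale for each gene. Spinal cord is above Cre-positive diaphragm in every library at every age for Mbp, Mog, Mobp, Mag, Cnp, Olig1 and Olig2, while Gsn is above it only at P10 and Pdgfra only at P10, by a margin that did not pass the test.

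At P10 the spinal cord mean of Mbp was 239-fold that of Cre-positive diaphragm (log2 difference 7.90, adjusted p = 1.6e-11), and that of Cnp 62.4-fold (5.90). Mag had 132, 139 and 142 CPM in spinal cord against 1.07, 0 and 0.677 CPM in Cre-positive diaphragm (6.52). Where no diaphragm library had a read, Olig2 in spinal cord was at least 159-fold higher at E15.5, 416-fold at P0.5 and 434-fold at P10, against 3 reads per library. On the same footing Mog was at least 13-fold higher at E15.5 and 113-fold at P0.5, and Mobp at least 49.2-fold at E15.5. These bounds cover counting error only, not the spread between libraries. Spinal cord alone carried Olig2, Mog and Mobp through the filter, so their folds describe levels and are no test of the tissues. The call for Mog at E15.5 (log2 difference 0.50, adjusted p = 0.0034) was lost without the intermediate libraries (adjusted p = 0.11).

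Gsn turned round between the ages. Spinal cord had 14.1 ± 1.71 CPM at E15.5 against 50.3 ± 9.18 CPM in Cre-positive diaphragm (SD, n = 3 each, log2 difference -1.75, limma adjusted p = 3.8e-06), and likewise 9.78 ± 0.825 against 44.1 ± 5.85 CPM at P0.5 (-2.06, limma adjusted p = 3.9e-07). At P10 it had 1892 ± 52.0 CPM in spinal cord against 29.7 ± 1.24 CPM in diaphragm (5.95, limma adjusted p = 2.9e-14). In adults the tissues overlapped at 61.2 ± 30.3 against 75.2 ± 22.0 CPM (-0.38, limma adjusted p = 0.19), a difference that passed the test as lower in spinal cord under RLE (-1.20) and the other scalings, and without spinal cord replicate 1 (-0.74, limma adjusted p = 0.0063).

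Pdgfra passed the test against Cre-positive diaphragm at none of the 4 ages (log2 differences -0.46, 0.20, 0.25 and -0.47, adjusted p = 0.098, 0.46, 0.37 and 0.091). These values depend on the scaling: with RLE spinal cord was called lower at E15.5 (-0.92) and in adults (-0.97). At P0.5 the sign turned and spinal cord was called lower with quantile normalization (-0.84, adjusted p = 0.00044) and TMM (-0.65, adjusted p = 0.0059). The same held in edgeR (-0.89, adjusted p = 0.0062) and DESeq2 (-0.66, adjusted p = 0.022). At P0.5 the diaphragm libraries had 2.82, 8.73 and 2.53 CPM against 4.62, 4.71 and 5.22 CPM in spinal cord, and without diaphragm replicate 2 spinal cord was higher (0.67, adjusted p = 4.9e-05). The fibroblast genes, with which Pdgfra is shared, summed to 2401 to 3222 CPM in Cre-positive diaphragm at P0.5 and to 169 to 219 CPM in spinal cord. Their part in the Pdgfra values was not tested.

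Replicate 2 of the P0.5 Cre-positive diaphragm stood apart for more of the genes. It had 39.5 CPM of Mbp, where replicates 1 and 3 had 6.07 and 4.35 CPM, and 8.73 CPM of Pdgfra where they had 2.82 and 2.53 CPM. The part of that library's makeup in the values above was not tested.

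Age steps were also tested within Cre-positive diaphragm, where Mog, Mobp, Olig1 and Olig2 entered the fit only through spinal cord. Of the 5 members that passed the filter within diaphragm, none rose and Cnp fell at P0.5 relative to E15.5 (log2 difference -1.23, adjusted p = 0.00079). Over all genes 10.2% were higher and 39% lower. Of the other 4, Mog and Olig2 had no read at either age and could not change. Olig1 fell (-0.82, adjusted p = 0.025, with overlapping libraries). At P10 relative to P0.5, 2 of the 5 rose (24% of all genes higher, 16.8% lower): Mbp (2.15, adjusted p = 0.0019, overlapping) and Cnp (0.97, adjusted p = 0.0067). Mobp, carried through the filter by spinal cord, rose as well (0.75, adjusted p = 0.0083). In adults relative to P10 Gsn rose (1.27, adjusted p = 0.00043) and Cnp (-1.44, adjusted p = 0.00021) and Pdgfra (-0.61, adjusted p = 0.049) fell (11.7% higher, 32.7% lower). Single libraries decided several of these calls. Olig1 was lost without E15.5 replicate 2 (-0.25, adjusted p = 0.15) and without P0.5 replicate 1 or 3 (adjusted p = 0.053 and 0.052), Cnp at P10 without P10 replicate 2 (0.68, adjusted p = 0.051), and Pdgfra in adults without any library but adult replicate 1 (adjusted p = 0.079 to 0.12). Without the intermediate libraries 1 fell at P0.5 (5.27% of all genes higher and 16.6% lower), none changed at P10 (8.62% and 6.11%), and 1 rose and 1 fell in adults (3.55% and 14.7%). The Schwann cell genes summed to 128 to 230.2, 111 to 212, 216 to 232 and 59.1 to 84.6 CPM in these libraries at the 4 ages, and their part in the values of Mbp was not tested.

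The difference between the tissues' age steps was tested directly. Of the 5 members that passed the filter within diaphragm, 3 had a larger P0.5 step in spinal cord than in Cre-positive diaphragm, where 26.8% of all genes were higher by this test and 11.8% lower. They were Cnp (log2 difference of steps 2.87, adjusted p = 7.2e-06), Mag (2.82, adjusted p = 5.8e-05) and Mbp (2.78, adjusted p = 0.0041). At P10, 4 of the 5 had the larger step in spinal cord (18.1% higher and 28.3% lower over all genes): Gsn (8.01, adjusted p = 2.9e-12), Mbp (2.13, adjusted p = 0.018), Mag (2.08, adjusted p = 0.0008) and Cnp (1.29, adjusted p = 0.0089). At adult versus P10, 3 of the 5 had the more negative step in spinal cord (20.1% higher and 14.3% lower), Gsn by the most (-6.32, adjusted p = 3.6e-10), then Mbp (-2.85, adjusted p = 0.0041) and Mag (-1.77, adjusted p = 0.0047). Mag passed at none of the 3 steps in edgeR (adjusted p = 0.14, 0.32 and 0.19) or DESeq2 (0.17, 0.41 and 0.26). Without the intermediate libraries Mag and Cnp passed at P0.5 (6.58% of all genes higher and 3.62% lower), Mag and Gsn at P10 (7.79% and 12.2%) and Gsn in adults (4.13% and 2.46%).

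Mog, Mobp, Olig1 and Olig2 came through the filter by spinal cord alone, so their differences of steps mostly restate the spinal cord steps. For Mog (1.70) and Olig2 (1.22), at 0 reads in Cre-positive diaphragm at both E15.5 and P0.5, the P0.5 difference is the spinal cord step itself and says nothing of diaphragm. For Mobp (3.59 at P0.5), which had no read in Cre-positive diaphragm at E15.5, the sign turned in edgeR (-2.78, adjusted p = 0.49) and DESeq2 (-2.15, adjusted p = 0.3).

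Cre-positive and Cre-negative diaphragm were compared for the 5 members that passed the filter on low values, Mbp, Mag, Cnp, Gsn and Pdgfra. No member differed at E15.5 (4.88% of all 13853 genes tested higher and 6.11% lower) or in adults (3.06% and 8.92%) at an adjusted p under 0.05 in limma. At an unadjusted p under 0.05 there was none at E15.5 and 1, Mag, in adults (adjusted p = 0.087 by limma), which passed without Cre-positive replicate 1 (adjusted p = 0.028), while DESeq2 called 1 member at E15.5 and edgeR none at either age. Gsn was lower in Cre-positive diaphragm at P0.5, with 48.3, 37.4 and 46.6 CPM against 140, 67.5 and 82.3 CPM in Cre-negative diaphragm (log2 difference -1.05, adjusted p = 0.0043, with 12.1% of all genes higher and 15.7% lower). Genes of other cells moved at this age too. Of 15 fibroblast genes 3 were higher and 6 lower, their sum being 2401 to 3222 CPM in Cre-positive against 3809 to 8024 CPM in Cre-negative diaphragm. Of 10 skeletal muscle genes 9 were lower, their sum being 42456.5 to 42983 CPM against 58874 to 72331 CPM, and the part of either in the Gsn value was not tested. At P10 Mag had 1.07, 0 and 0.677 CPM in Cre-positive against 2.88, 4.25 and 4.03 CPM in Cre-negative diaphragm (-1.63, adjusted p = 0.013). Gsn was lower there too (-1.01, adjusted p = 0.048), with 0.419% of all genes higher and 1.03% lower. Mag was lost without Cre-negative replicate 3 or Cre-positive replicate 2 or 3 (adjusted p = 0.055 to 0.084), and Gsn at P10 without any library but Cre-negative replicate 2 (adjusted p = 0.13 to 0.22). None of these 3 calls was left without the intermediate libraries (adjusted p = 0.17, 1 and 1), where 0.67% of all genes were higher and 0.143% lower at P0.5, and 0% each way at P10. At E15.5 the shares were then 0.0452% higher and 0.00753% lower, and in adults 0.0452% and 0.0602%. The Schwann cell genes summed to 216 to 232 CPM in Cre-positive and 363 to 504 CPM in Cre-negative diaphragm at P10, and their part in the difference of Mag was not tested.

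Mbp did not pass limma's test by Cre at any age on the log2(CPM + 1) scale, but at P0.5 this depended on the setting. It had 36.9, 67.6 and 50.3 CPM in Cre-positive against 61.2, 60.6 and 62.6 CPM in Cre-negative diaphragm at P10 (log2 difference -0.29 ± 0.51, SE, adjusted p = 0.9), and 71.9, 32.5 and 37.8 CPM against 40.8, 58.9 and 35.7 CPM in adults (0.02 ± 0.51, SE, adjusted p = 1). The groups overlapped at both ages. At P0.5, where Cre-positive replicate 2 stood apart at 39.5 CPM, the log2 difference was 1.35 (adjusted p = 0.052), and it passed without Cre-positive replicate 1 (1.71, adjusted p = 0.036) or 3 (1.91, adjusted p = 0.013). It also passed as higher in Cre-positive diaphragm with pseudocount 0.1 (1.52, adjusted p = 0.046), quantile normalization (1.39, adjusted p = 0.017), RLE (1.69, adjusted p = 0.0079), TMM (1.69, adjusted p = 0.0076), edgeR (2.42, adjusted p = 0.0021) and DESeq2 (2.43, adjusted p = 1.7e-05). Without Cre-positive replicate 2 it was 0.45 (adjusted p = 0.39). At the same age edgeR (adjusted p = 0.027) and DESeq2 (adjusted p = 0.0021) also called Mag higher in Cre-positive diaphragm.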

How the data were processed

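RNA purified by the HA tag was measured in 36 libraries of 12 groups. The authors deposited a single table in CPM, in which each library adds up to 1000000. Tools named in the submitters' processing notes are RSEM 1.2.12 and Bowtie2 2.2.5, with the build mm10; their settings are not given in the sources used here. CPM values were whole multiples of a step, within 0.1 of a read, so reads and depth were recovered. In P0.5 Cre-positive diaphragm replicate 3 the step is close to a round value and its depth is an estimate.

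Differences were tested with limma 3.58.1 (trend and robust) in R 4.3.3 on log2(CPM + 1), which understates the change of low genes, keeping genes that reach 1 CPM in 3 or more fitted libraries. P-values were adjusted by Benjamini-Hochberg over all genes tested, with a threshold of 0.05. The fits held the 12 spinal cord libraries, the 12 spinal cord and 12 Cre-positive diaphragm libraries, or the 24 diaphragm libraries, and each p-value draws on the spread in all groups fitted. Alternatives were a pseudocount of 0.1, no filter, quantile normalization, RLE and TMM factors, edgeR 4.0.16 and DESeq2 1.42.0 on recovered reads, fitting just the groups compared, a block for replicate number, and leaving out libraries. The intermediate library of a group is the one that a mixture of the other 2 describes best. The test was also run on simulated counts, with independent libraries and a single spread for all genes. That check therefore does not cover the intermediate libraries or the wider spread of some diaphragm groups.

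All 9 members are named. From other lists of markers, counts, medians and up to 4 called genes with the largest difference are given, with Chat, and the 3 genes most like each member. Courses over the ages of listed genes such as Gpr17, Sox10 and S100b, and the genes of the library comparisons, were chosen after their values were seen. Members and lists were chosen with earlier results of these data known. Some genes that these rules name are not reported here. Promoter sequences are from RefSeq (GRCm38.p6).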

Additional observations from a re-analysis of the deposited data

Results flagged for a closer look

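In the comparison of age steps between the tissues, 21 differences passed the test (spinal cord step minus Cre-positive diaphragm step, log2, limma). Those of Mog, Mobp, Olig1 and Olig2 came through the filter on low values by spinal cord alone and mostly restate the spinal cord steps. At P0.5 versus E15.5 they were Mbp 2.78 (adjusted p = 0.0041), Mog 1.70 (1.6e-06), Mobp 3.59 (2.6e-08), Mag 2.82 (5.8e-05), Cnp 2.87 (7.2e-06), Olig1 1.55 (0.0056) and Olig2 1.22 (0.00027). Without the intermediate libraries Mbp (adjusted p = 0.19), Olig1 (0.13) and Olig2 (0.059) no longer passed.

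At P10 versus P0.5 they were Mbp 2.13 (adjusted p = 0.018), Mog 5.09 (4.7e-13), Mobp 5.02 (1.6e-10), Mag 2.08 (0.0008), Cnp 1.29 (0.0089), Gsn 8.01 (2.9e-12) and Olig1 1.12 (0.032). Mbp (adjusted p = 0.12), Cnp (0.15) and Olig1 (0.25) did not pass without the intermediate libraries.

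At adult versus P10 they were Mbp -2.85 (adjusted p = 0.0041), Mog -1.75 (2e-06), Mobp -2.16 (2e-05), Mag -1.77 (0.0047), Gsn -6.32 (3.6e-10), Olig1 -1.09 (0.046) and Olig2 -1.16 (0.00055). Here Mbp (adjusted p = 0.12), Mag (0.17), Olig1 (0.35) and Olig2 (0.12) did not pass without the intermediate libraries. Olig1 was also lost on leaving out 6 of 12 single libraries at P10 (adjusted p = 0.051 to 0.056) and 11 of 12 at adult versus P10, all but spinal cord adult replicate 1 (adjusted p = 0.058 to 0.1). In diaphragm Mog reached at most 0.103 CPM and Olig2 at most 0.0374 CPM in any library.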

How the results depend on the processing

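In spinal cord the counts of members called were the same under every alternative and without any single library, except that Gsn was called lower at P0.5 versus E15.5 in a fit of the compared groups only (1 lower) and that Pdgfra was lost at P10 versus P0.5 without the intermediate libraries (0 lower). Leaving out each library gave 8 higher and 0 lower (P0.5 step), 7 and 1 (P10 step), and 0 and 9 (adult step). The replicate numbers did not pair the samples (correlations of -0.0959 to 0.109 in 14 pairs of groups), and with the replicate block 8 members were higher and 0 lower for the P0.5 step, 7 and 1 for the P10 step and 0 and 9 for the adult step, as without it. With the block Olig1 was lost in the difference of steps at adult versus P10 (adjusted p = 0.055), and in Cre-positive diaphragm at that step Pdgfra was lost (adjusted p = 0.056) and Mobp was called lower (-0.51, adjusted p = 0.037). For spinal cord versus Cre-positive diaphragm, and for the difference of steps, counts here are over all 9 members. The values reported are 7 to 8 higher at each age (52.1% to 56.9% of all genes) and 7 differences at each step. At each age 4 of them are Mog, Mobp, Olig1 and Olig2, which spinal cord carried through the filter. For these genes the filter favoured a higher level in spinal cord in advance. They also make up 4, 3 and 4 of the differences at the P0.5, P10 and adult steps. Counts that hold across settings thus say nothing of diaphragm for these 4 genes. Against diaphragm, members lower were 2 in place of 1 at E15.5 with quantile, RLE, TMM, edgeR, DESeq2 and the compared groups only, 2 in place of 1 at P0.5 with quantile, TMM, edgeR and DESeq2 (Pdgfra reversed at -0.84, -0.65, -0.89 and -0.66), and in adults 1 with pseudocount 0.1 and the compared groups only and 2 with quantile, RLE, TMM, edgeR and DESeq2. Leaving out libraries gave 7 to 8 higher at P0.5 (8 without diaphragm replicate 2), 0 to 1 lower in adults, and 7 and 1 at E15.5 and 8 and 0 at P10.

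In Cre-positive diaphragm, P0.5 versus E15.5 gave 1 higher with pseudocount 0.1, quantile, RLE and TMM and 2 with edgeR and DESeq2, and 1 lower with quantile, edgeR, the compared groups only and without the intermediate libraries. P10 versus P0.5 gave 0 higher with the compared groups only and without the intermediate libraries, 1 lower with quantile and the compared groups only, and 2 lower with RLE, TMM, edgeR and DESeq2. Adult versus P10 gave 2 higher with quantile and edgeR and 3 with DESeq2, and 1 lower with no filter, quantile, RLE, TMM, edgeR, DESeq2, the compared groups only and without the intermediate libraries. Leaving out libraries gave 0 to 1 higher and 1 to 3 lower, 2 to 3 higher and 0 to 1 lower, and 1 higher and 1 to 2 lower at these steps.

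For the difference of steps, P0.5 had 3 higher with edgeR and DESeq2 and 4 without the intermediate libraries, with Mobp reversed in edgeR and DESeq2 (-2.78 and -2.15, adjusted p = 0.49 and 0.3). P10 had 4 higher with pseudocount 0.1, edgeR, DESeq2 and without the intermediate libraries, with Olig1 reversed in edgeR and DESeq2 (-3.03 and -2.04, adjusted p = 0.63 and 0.51) and Pdgfra between -0.42 (without P0.5 Cre-positive diaphragm replicate 2, adjusted p = 0.035) and 0.31 when single libraries were left out. Adult versus P10 had 4 lower with pseudocount 0.1, 5 with edgeR and DESeq2 (Pdgfra newly among them) and 3 without the intermediate libraries. Leaving out libraries gave 7 to 8 higher at P0.5, 6 to 7 higher and 0 to 1 lower at P10, and 6 to 7 lower in adults.

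Between Cre-positive and Cre-negative diaphragm, DESeq2 gave 1 higher at E15.5. At P0.5, 1 was higher with pseudocount 0.1, quantile, RLE and TMM, 2 with edgeR and DESeq2, and 0 were lower with the compared groups only and without the intermediate libraries. At P10, 1 was higher with no filter, and 0 were lower with pseudocount 0.1, edgeR and without the intermediate libraries and 1 with quantile, RLE, TMM and DESeq2. In adults 1 was higher with RLE and TMM. Leaving out libraries gave 0 at E15.5, 0 to 1 higher and 1 lower at P0.5, 0 to 2 lower at P10 and 0 to 1 higher in adults. With 5% and 25% as onset thresholds, 3 genes reached the higher one at E15.5 and 0 at P0.5. The causes of these changes were not tested. Besides, 60 values of 15 differences that passed the threshold in neither fit changed sign, at sizes of 0.01 to 0.59 on the log2 scale. Over all genes, 201 differed by Cre at P10 with limma, 49 with edgeR, 502 with DESeq2, 1196 with the compared groups only and 0 without the intermediate libraries.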
